A study of Drosophila melanogaster with 4 samples.

Results

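The genes of glutathione transferases and cytochromes P450 were followed in whole *Drosophila melanogaster* larvae mutant for *ash2*. Members were taken by current gene symbol, as *Gst* followed by a class letter (D, E, O, S, T or Z) and a number, or *Cyp* followed by a number. This rule found 118 of the 12058 genes with a probe of their own on the array. They were 35 glutathione transferase genes, 81 P450 genes, and 2 genes, *Cyp1* and *Cyp40*, that carry the same letters but encode cyclophilins, a family of protein-folding enzymes. The 2 cyclophilin genes were set apart and enter no count or median of P450 genes. *Cyp40* gave no value, and *Cyp1* had a log2 ratio of -0.36 ± 0.14 (SE, n = 2) that did not pass the test (adjusted p = 0.151 in limma).

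Mutant larvae (w1118;+;ash2I1) were compared with a pool of larvae of the isogenic wild-type strain (w1118;+;+) on 4 two-colour arrays of long oligonucleotides. Both were whole larvae in the third instar, raised at 25°C on food with 0.025% bromophenol blue, whose colour in the gut stages the animals, and both carried the *w1118* allele. The methods add that larvae without the *Tb* marker of the balancer were chosen, and that the reference line supplied the X, Y and second chromosomes of the mutants. Chromosome 3, with the *ash2* mutation, was not exchanged. For members on any arm, effects of the mutation and of the rest of that chromosome therefore cannot be told apart. Mutant RNA came from 2 extractions, with arrays 1 and 2 for extraction 1 and arrays 3 and 4 for extraction 2. Each array set it against the same wild-type pool, which counts as 1 control whose own spread is left out.

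Values are log2 ratios. Above 0 they likely stand for more RNA in the mutant: its RNA was labelled with Cy5 on all 4 arrays, and limma, which the authors used, by convention divides Cy5 by Cy3. With no dye swap, a dye effect on a probe and a change in the mutant cannot be told apart. A gene was tested when it had a value in both extractions, and it was called when its adjusted p in limma, over all 1659 tested genes, was under 0.05 and its change at least 2-fold, which is 1 on the log2 scale. In bulk RNA of whole animals, a smaller tissue and less RNA per cell cannot be told apart.

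Glutathione transferases join the tripeptide glutathione to reactive or fat-soluble compounds, which makes them easier to excrete. In insects the Delta (D) and Epsilon (E) classes are large, lie mostly in tandem arrays, and are known for their part in insecticide resistance, while the Omega (O), Sigma (S), Theta (T) and Zeta (Z) classes occur in many animals. Cytochromes P450 are haem enzymes that insert oxygen into their substrates. Some make or break down hormones such as ecdysone, and many oxidise plant toxins and insecticides as the first step of detoxification. In the larva many genes of both groups are active in the midgut, the fat body and the Malpighian tubules.

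Spots removed in the quality control of the authors decide which members can be described. Of the 35 glutathione transferase genes 21 (60.0%) had a value on at least 1 array, against 29.08% of all genes, and 15 were tested. Of the 81 P450 genes 21 (25.93%) had a value and 9 were tested. The other 74 members gave no value on any array, which says nothing of their change. Array 4 was the sparsest, with 1108 probe values against 2091 to 3513 on the others. It held values for *GstD1* and *GstO3* alone among the members, so extraction 2 stands on array 3 for the rest. Each measured member had 1 measured probe.

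Of the 15 tested glutathione transferase genes 2 rose in mutant larvae, none fell and 13 did not pass. Over all tested genes 6.63% were called, 3.8% as rises and 2.83% as falls. The median log2 ratio of the 15 genes was 0.00, with values from -0.84 to 1.14, and 7 lay above 0 and 8 below. Over all tested genes the median was 0.01. Without the fold limit the same 2 genes passed, against 10.1% of all tested genes. At an unadjusted p under 0.05 there were 6 of the 15, 4 above 0 and 2 below, where 34.2% of all tested genes had such a p, 17.8% above 0 and 16.5% below. The median was -0.24 over the 7 genes with at least 3 arrays. The classes are described apart, and no difference between them was tested.

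**Figure D1:**
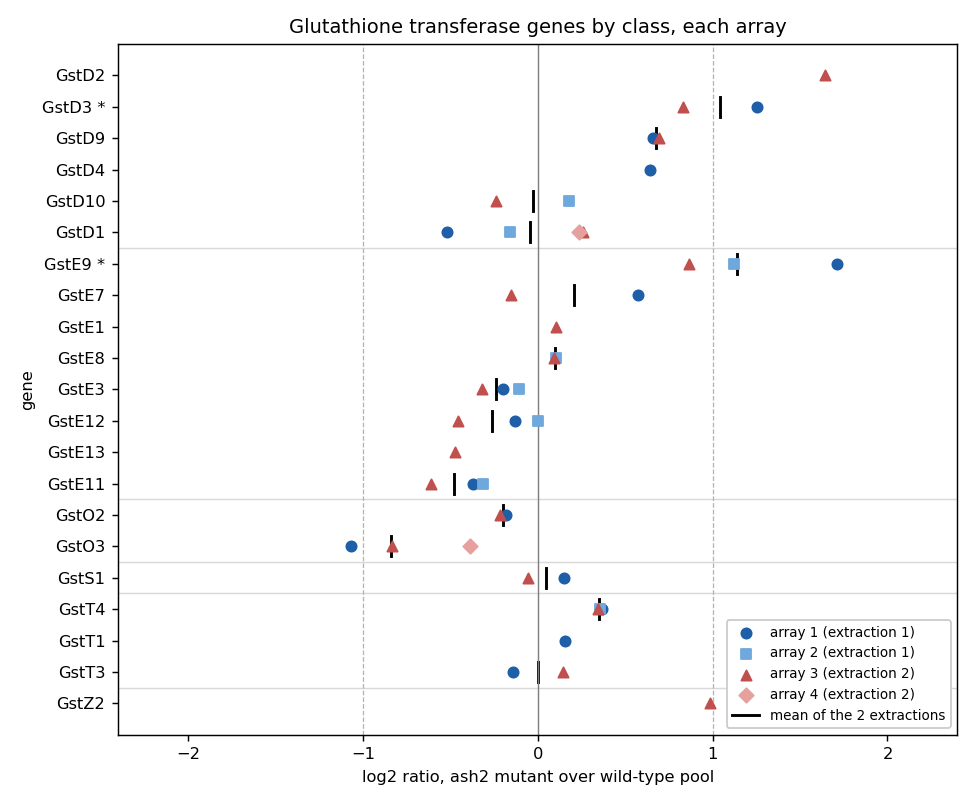
Log2 ratio (mutant over wild-type pool, x axis) of each of the 21 glutathione transferase genes with a value, 1 point per array, ordered by class and separated by grey lines. Black bars are means of the 2 extractions for tested genes, dashed lines mark a 2-fold change, and an asterisk marks the 2 called genes. *GstE9* and *GstD3* lie to the right of 0.8 on every array that measured them. *GstD1*, *GstD10*, *GstE7*, *GstS1* and *GstT3* have points on both sides of 0, as has *GstE12*, whose highest point is at 0.001.

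*GstE9* (CG17534), a gene of the Epsilon class on arm 2R, showed the largest rise among the tested members. Its log2 ratio was 1.71 on array 1, 1.12 on array 2 and 0.86 on array 3. All its values were positive, and the 2 arrays of extraction 1 lay above that of extraction 2. The mean was 1.14 ± 0.19 (SE, n = 2), or 2.2-fold (adjusted p = 0.0425 in limma), with a 95% interval from 0.63 to 1.65. It ranked 67 from the top of the 1659 tested genes. The call changed with either array of extraction 1 left out: without array 1 the log2 ratio was 0.99, just under 2-fold (adjusted p = 0.00611), and without array 2 the log2 ratio was higher, at 1.29, but the adjusted p was 0.0741.

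*GstD3* (CG4381), of the Delta class on arm 3R, was the other gene called. Its log2 ratio was 1.25 on array 1 and 0.83 on array 3, with no value on arrays 2 and 4, so each extraction is 1 array. The mean was 1.04 ± 0.16 (SE, n = 2), or 2.06-fold (adjusted p = 0.0422 in limma), and the 95% interval ran from 0.59 to 1.49. It ranked 80 from the top. Without array 2, which did not measure this gene but served to estimate the spread of the others, the call was lost (adjusted p = 0.0689).

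Both calls were close to both limits. With each array scaled to the same median absolute deviation the log2 ratios fell below 1, to 0.99 for *GstE9* and 0.83 for *GstD3*, while their adjusted p-values were 0.00303 and 0.00474. With 1 probe per gene both genes kept their log2 ratio and had an adjusted p = 0.05001, since the values of other genes differed. Of the 13 alternatives that could test *GstE9* 7 called it, and so did 7 of the 11 that could test *GstD3*. Their log2 ratios stayed between 0.99 and 1.29 and between 0.83 and 1.04. Over the same alternatives the adjusted p in limma ran from 0.00303 to 0.187 and from 0.00474 to 0.207.

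**Figure D2:**
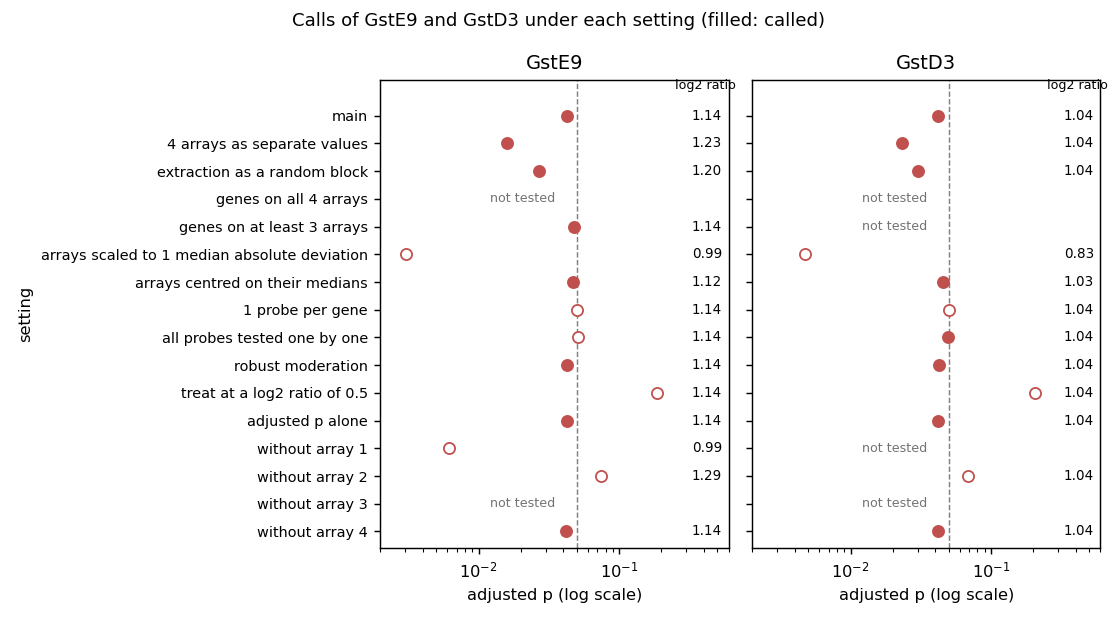
Adjusted p (x axis, log scale) of *GstE9* and *GstD3* under each setting (rows), with the log2 ratio printed at the right. Filled points were called, open points were not, and the dashed line marks 0.05, with the analysis as described in the row named main. The log2 ratio of *GstE9* lies between 0.99 and 1.29 and that of *GstD3* between 0.83 and 1.04, and open points to the left of the line are those with a change under 2-fold.

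The Delta class had 11 genes on the array, which follow one another on arm 3R from *GstD10* to *GstD11* with 1 other gene in each of 2 gaps. Of these 6 had a value and 4 were tested, with a median log2 ratio of 0.32. *GstD9*, the second of the row, had nearly the same value on the 2 arrays that measured it, 0.66 on array 1 and 0.69 on array 3. Its mean of 0.68 ± 0.13 (SE, n = 2) was 1.6-fold, and the adjusted p was 0.051, so it missed both limits. Under the alternatives its ratio lay between 0.57 and 0.68, and the adjusted p in limma ran from 0.0255 to 0.764.

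*GstD2* and *GstD4*, the neighbours of *GstD3*, were each measured on 1 array, so neither could be tested. *GstD2* had 1.64 on array 3, the highest member value on that array, and *GstD4* had 0.64 on array 1. The 4 genes *GstD9*, *GstD2*, *GstD3* and *GstD4* were thus above 0 on each array that gave a value, and only *GstD3* was called. The other measured Delta genes, *GstD1* and *GstD10*, had values on both sides of 0. *GstD5* to *GstD8* and *GstD11* gave no value. The Delta genes are close copies, and a probe of 1 may also bind the RNA of another, so these values need not be separate measurements.

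*GstD1* lies between *GstD9* and *GstD2*. It encodes the best known Delta enzyme, which breaks down the insecticide DDT, and it was the only member with a value on all 4 arrays. The log2 ratio was -0.52 and -0.16 on arrays 1 and 2 and 0.26 and 0.24 on arrays 3 and 4. The extractions did not overlap and had opposite signs. The mean was -0.05 ± 0.19 (SE, n = 2; adjusted p = 0.882), and its 95% interval from -0.57 to 0.48 leaves room for changes in either direction. *GstD10*, at the edge of the group, also changed sign, with 0.18 on array 2 and -0.24 on array 3 and a mean of -0.03 ± 0.16 (adjusted p = 0.913).

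**Figure D3:**
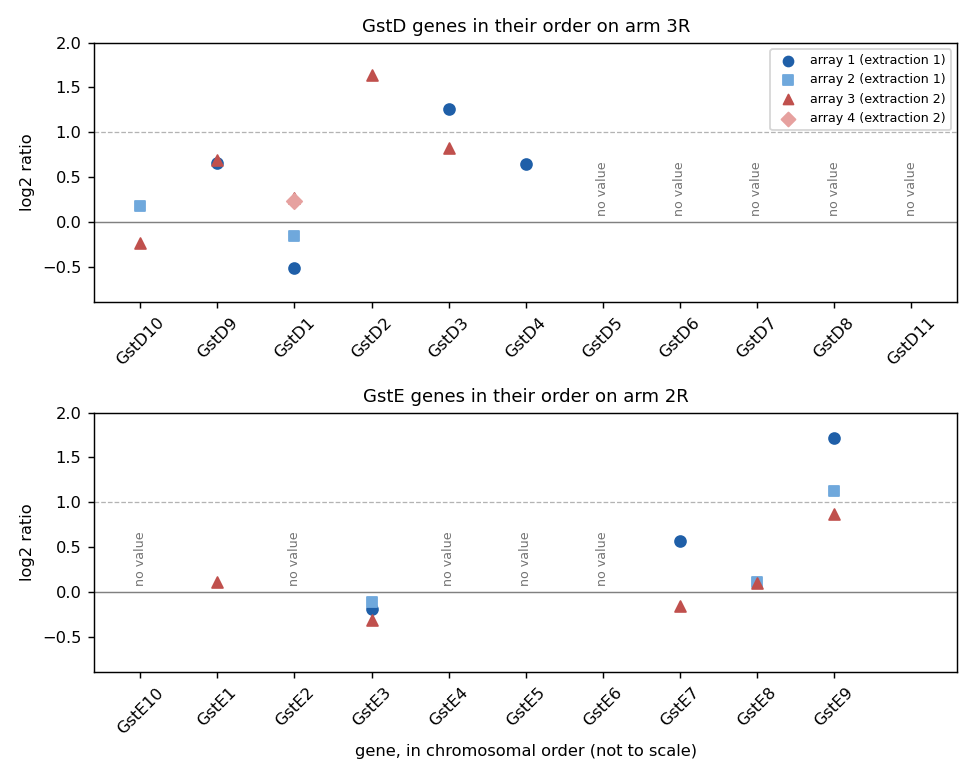
Log2 ratio (y axis) on each array for the Delta genes of arm 3R (top) and the 10 Epsilon genes from *GstE10* to *GstE9* on arm 2R (bottom), in chromosomal order along the x axis (not to scale). The dashed line marks a 2-fold rise, and genes without a point gave no value. In the top panel *GstD9*, *GstD2*, *GstD3* and *GstD4* lie above 0.6, and *GstD1* and *GstD10* span 0. In the bottom panel *GstE9* stands at 0.86 to 1.71 next to *GstE8* at about 0.1.

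In the Epsilon class 8 of 14 genes had a value and 6 were tested, with a median log2 ratio of -0.07. *GstE9* closes a run of 10 Epsilon genes on 2R, of which 5 had a value. Its neighbour *GstE8* had 0.11 on array 2 and 0.10 on array 3, and a mean of 0.10 ± 0.13 (SE, n = 2; adjusted p = 0.606). *GstE7*, the next in the run, had 0.57 on array 1 and -0.15 on array 3. The extractions of *GstE7* differed by 0.73, the largest gap of the tested members, and its mean of 0.21 ± 0.22 did not pass (adjusted p = 0.536). No test was made of *GstE9* against its neighbours.

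The remaining Epsilon genes had values below or near 0, and none passed. *GstE3* had -0.20, -0.11 and -0.32 on arrays 1 to 3, and its mean of -0.24 ± 0.13 did not pass (adjusted p = 0.283). *GstE11* and *GstE12*, which lie outside the run, had means of -0.48 ± 0.14 and -0.26 ± 0.16 (SE, n = 2). For *GstE11* the arrays gave -0.37, -0.31 and -0.61, all on the same side, with an unadjusted p of 0.0273 and an adjusted p of 0.107. For *GstE12* they gave -0.13, 0.00 and -0.45 (adjusted p = 0.315). *GstE13* and *GstE1* were measured on array 3 alone, at -0.47 and 0.10. *GstE14*, known as *Noppera-bo* and needed for ecdysone synthesis, gave no value.

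Of the smaller classes, the Omega genes *GstO3* and *GstO2* lie near each other on arm 3L. *GstO3* (CG6776) had the lowest ratio of the tested glutathione transferase genes, at -1.07 on array 1, -0.83 on array 3 and -0.39 on array 4. All 3 values were negative, with the smallest on array 4, which carried the same RNA as array 3. The mean was -0.84 ± 0.17 (SE, n = 2), 1.79-fold lower in the mutant, with an adjusted p of 0.0549 in limma. Under the alternatives it stayed under 2-fold, between -0.95 and -0.71, while the adjusted p in limma ran from 0.0087 to 0.486. *GstO2* had -0.18 and -0.22 on arrays 1 and 3 and did not pass (adjusted p = 0.329).

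*GstS1*, the single Sigma gene of the fly, is abundant in muscle and acts on products of lipid peroxidation. Its log2 ratio was 0.15 on array 1 and -0.06 on array 3, and the mean was 0.05 ± 0.14 (adjusted p = 0.827). Among the Theta genes *GstT4* repeated most closely, with 0.37, 0.36 and 0.34 on arrays 1 to 3, a mean of 0.35 ± 0.13 and an adjusted p of 0.143. *GstT3* had -0.14 and 0.14 on arrays 1 and 3, so its mean was 0.00 with a 95% interval from -0.40 to 0.40. *GstT1* was seen on array 1 alone, at 0.16, and the Zeta gene *GstZ2* on array 3 alone, at 0.98. Zeta enzymes act in the breakdown of tyrosine.

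None of the 9 tested P450 genes was called in limma, where 6.63% of all tested genes were, and 3 had an unadjusted p under 0.05, near the 34.2% over all tested genes. Their median log2 ratio was 0.15, with values from -0.81 to 0.55, and 6 lay above 0 and 3 below. *Cyp12d1-p* and *Cyp12d1-d*, near-identical copies that need not be separate measurements, both count among the 6 above 0. Over the 6 P450 genes with at least 3 arrays the median turned to -0.08. All 9 had the same sign in the 2 extractions, against 5 of 15 glutathione transferase genes with opposite signs and 22.2% of all tested genes. The median size of the difference between extractions was 0.394 for P450 genes, against 0.287 for glutathione transferase genes and 0.226 over all tested genes. None of the P450 genes had a value on array 4. The 9 genes belonged to 5 families, and 14 of the 20 P450 families on the array gave no value for any gene, among them *Cyp313* with 6 genes.

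**Figure D4:**
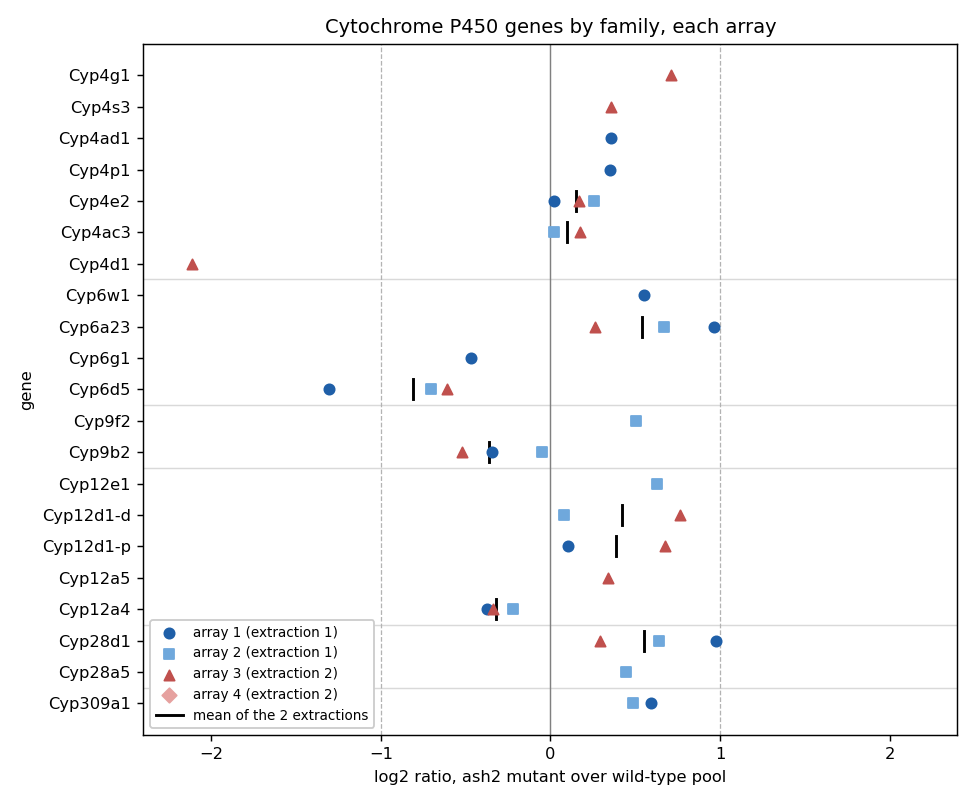
Log2 ratio (mutant over wild-type pool, x axis) of each of the 21 P450 genes with a value, 1 point per array, ordered by family and separated by grey lines. Black bars are means of the 2 extractions for the 9 tested genes, and dashed lines mark a 2-fold change. *Cyp6d5* lies to the left of -0.6 on its 3 arrays, *Cyp4d1* has a single point at -2.11, and most other points lie between -0.5 and 1.

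In the *Cyp6* family, whose members in insects often oxidise toxins, 4 of 22 genes had a value. *Cyp6d5* (CG3050), on arm 3R, had a log2 ratio of -1.31 on array 1, -0.71 on array 2 and -0.61 on array 3. Every array gave a lower level in the mutant, and the mean was -0.81 ± 0.16 (SE, n = 2), with an adjusted p of 0.0532 and a 95% interval from -1.24 to -0.37. Under the alternatives it stayed under 2-fold, between -0.96 and -0.66, while the adjusted p in limma ran from 0.0103 to 0.51. *Cyp6a23* lay on the other side of 0, with 0.97, 0.67 and 0.26, and a mean of 0.54 ± 0.19 that did not pass (adjusted p = 0.135). It lies in a run of 9 P450 genes on arm 2R, from *Cyp6a22* to *Cyp317a1*, and was the only one of them with a value. *Cyp6g1*, known for resistance to DDT and neonicotinoids when over-expressed, had -0.47 on array 1 alone, and *Cyp6w1* had 0.55 there.

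*Cyp28d1* (CG10833), on arm 2L, had the highest mean of the tested P450 genes. Its log2 ratio was 0.97 on array 1, 0.64 on array 2 and 0.29 on array 3, a pattern close to that of *Cyp6a23*, with both arrays of extraction 1 above array 3. The mean of 0.55 ± 0.18 (SE, n = 2) had an unadjusted p of 0.0355 and an adjusted p of 0.122. *Cyp28a5* was measured on array 2 alone, at 0.44.

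In the *Cyp12* family, whose enzymes are mitochondrial, 5 of 7 genes had a value. *Cyp12d1-p* and *Cyp12d1-d* are near-identical copies on arm 2R, so the signal of a probe cannot be assigned to one of them. *Cyp12d1-p* had 0.10 on array 1 and 0.67 on array 3, and *Cyp12d1-d* had 0.08 on array 2 and 0.76 on array 3. Both probes thus gave a value near 0 in extraction 1 and a higher one in extraction 2, and their means of 0.39 ± 0.19 and 0.42 ± 0.21 did not pass (adjusted p = 0.229 and 0.238). *Cyp12a4*, known for resistance to lufenuron when over-expressed, was the only measured gene of this family below 0, at -0.38, -0.22 and -0.34 on arrays 1 to 3. Its adjusted p was 0.165. *Cyp12a5* and *Cyp12e1* were measured on 1 array each, at 0.34 and 0.63.

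The *Cyp4* family had 7 of 22 genes with a value. *Cyp4e2* had 0.02, 0.26 and 0.17 on arrays 1 to 3, and *Cyp4ac3* had 0.02 on array 2 and 0.18 on array 3. Neither passed (adjusted p = 0.44 and 0.634), with means of 0.15 and 0.10 and an SE of 0.13 each. *Cyp4g1* of the oenocytes, which makes the hydrocarbons that waterproof the cuticle, had 0.71 on array 3 alone. *Cyp4d1* had the lowest value of any member, -2.11, also on array 3 alone, so it has no replicate. *Cyp4ad1*, *Cyp4p1* and *Cyp4s3* had single values from 0.35 to 0.36. *Cyp9b2* had -0.34, -0.05 and -0.52 on arrays 1 to 3 (adjusted p = 0.178), and *Cyp9f2* and *Cyp309a1* were measured in extraction 1 only, at 0.51 and 0.54. *Cyp18a1*, which inactivates ecdysone, gave no value.

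In all, 18 members were measured in 1 extraction only, 15 of them above 0 and 3 below, and they have no replicate check. The share above 0 among all genes measured in 1 extraction was not counted. Over all genes with a value, 1264 of 2481 were above 0 on array 1, 807 of 1486 on array 2 and 1265 of 2448 on array 3. Of the 8 seen in extraction 2 only, *GstD2* and *Cyp4d1* were past 2-fold, where 2.6% of the 808 genes measured on array 3 alone were. Of the 10 seen in extraction 1 only none was past 2-fold, against 7.45% of 1020 genes.

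The size of a ratio depended on the array. Among the 1288 genes on arrays 1 and 2, which carried the same RNA, the ratio was larger in size on array 1 for 75.9%, and the same held for 6 of 6 glutathione transferase genes and 6 of 7 P450 genes. The signs were the same for 5 of these 6 and for 7 of 7. The exception, *GstE12*, had -0.13 on array 1 and 0.00 on array 2. *GstD3*, *GstD9*, *GstE7*, *GstO2*, *GstO3*, *GstS1*, *GstT3* and *Cyp12d1-p* had no value on array 2, so their extraction 1 is array 1. The part of this difference in their means was not tested.

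**Figure D5:**
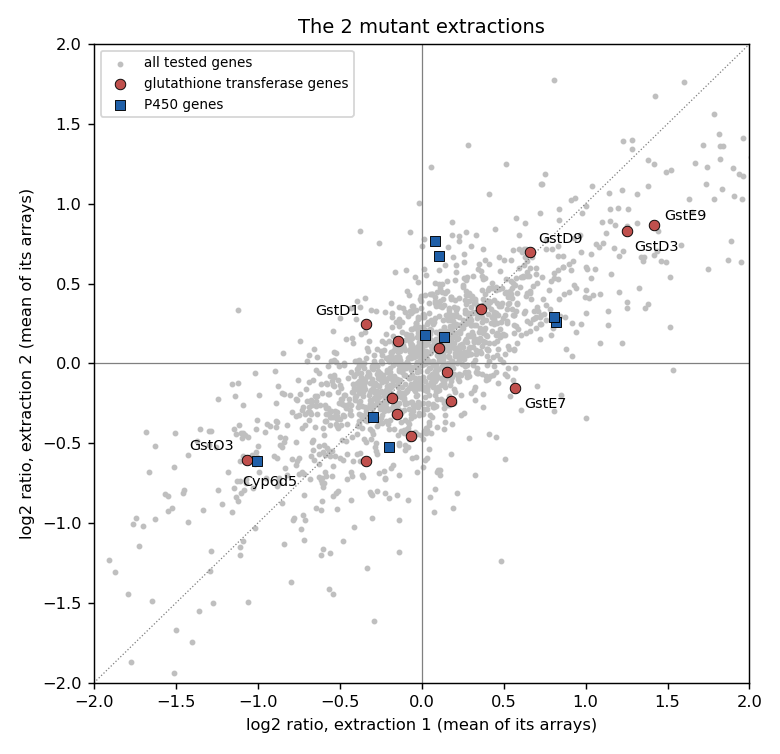
Log2 ratio in extraction 1 (x axis) against extraction 2 (y axis) for all tested genes (grey) and for the 15 glutathione transferase (red) and 9 P450 genes (blue), with a dotted line where both are equal. The 49 tested genes beyond 2 on either axis are outside the plot. *GstE9* and *GstD3* lie at the upper right below the dotted line, *GstO3* and *Cyp6d5* at the lower left, and 5 red points lie where the signs differ.

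Other genes of the same pathways were counted from lists by symbol, and of the 12 that were tested none was called in limma, while 5 had an unadjusted p under 0.05. Both counts are near the shares over all tested genes, 6.63% and 34.2%. Glutathione synthesis and use had 4 of 11 genes tested, with a median log2 ratio of 0.36 and values from -0.37 to 0.74. *Gclm*, the modifier subunit of the rate-limiting enzyme of glutathione synthesis, had 1.11, 0.97 and 0.43 on arrays 1 to 3, a mean of 0.74 ± 0.20 (SE, n = 2) and an adjusted p of 0.0885. *Fdh*, a dehydrogenase that uses glutathione to clear formaldehyde, had 0.59, 0.54 and 0.24 (adjusted p = 0.147). *Glo1*, the glyoxalase that acts on the glutathione adduct of methylglyoxal, was below 0 on all 4 arrays, with a mean of -0.37 ± 0.13 (adjusted p = 0.132). Both tested genes of the list of P450 redox partners were above 0. *CG5946* had 0.74, 0.31 and 0.37 on arrays 1 to 3, with a mean of 0.45 ± 0.13, an unadjusted p of 0.0256 and an adjusted p of 0.103. *Cyt-b5*, which passes electrons to some P450 enzymes, had a mean of 0.28 ± 0.15 (adjusted p = 0.255).

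Among the UDP-glycosyltransferases, which add sugars to compounds in the same phase of detoxification, 2 of 35 genes were tested and both were below 0, while of 5 more with a value on 1 array 4 were above 0. *Ugt301D1* had -1.03, -1.24 and -0.84 on arrays 1 to 3. Its mean of -0.98 ± 0.15 had an adjusted p of 0.0403 but stayed just under 2-fold. *Ugt36D1* had -2.10 on array 1 and -0.70 on array 3, and its mean of -1.40 ± 0.37 did not pass (adjusted p = 0.0862). *Ugt35C1*, on array 1 alone, had 1.87. Of the regulators that act on detoxification genes, *maf-S*, a partner of the cap'n'collar factor, had 0.24 ± 0.14 (adjusted p = 0.301), and *cnc* itself was measured on array 3 alone, at -0.51. The esterases and epoxide hydrolases had 2 tested genes, with *alpha-Est7* at 0.51 ± 0.19 (adjusted p = 0.147), and the ABC transporters 1, all uncalled, and the sulfotransferases and the P450 genes of ecdysone synthesis had none tested.

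Some markers of larval tissues passed the test, beside 3.8% rises and 2.83% falls over all tested genes. The 20 tested midgut markers had a median of 0.37 and values from -1.85 to 1.97, with 5 rises and 2 falls. Of 3 tested fat body markers 2 fell, with a median of -1.46, and of 3 salivary gland markers 1 fell, with a median of -2.78. The 9 tested cuticle genes had a median of -0.09 with 2 falls, the 3 tested muscle genes lay between 0.09 and 0.46, and the 1 tested hemocyte gene was at 0.01. The Malpighian tubule had no tested marker. The part of these shifts in the values of the members was not tested, and since each array holds ratios, no level within a group can be given.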

How the data were processed

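The deposited values are ratios per probe, taken as log2. According to the methods, the authors filtered GenePix spots by quality, applied normexp to the background, and normalised with OLIN inside each array and then across arrays by median absolute deviation. No source used here gives the versions, and the table itself does not name log base or direction.

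Of 16416 probes 13164 carried a single gene symbol. Symbols were brought up to date with a Release 6 gene table, used for names, arms and gene order only. Probes were averaged per gene and array, then arrays per extraction, which share amplified RNA, so n = 2. The mean was tested against 0 in limma 3.58.1 (R 4.3.3, eBayes, two-sided, Benjamini-Hochberg over 1659 genes). The fit was also run on simulated data drawn from its own fitted spread, without array or dye effects. That run checks the code, not the error rates in these data. SE is the moderated standard error. Tables and plots were made with Python 3.11.15, pandas 2.3.3 and matplotlib 3.10.9.

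Members and lists were chosen with earlier results of these data known. All members with a value were named, with array values above all for called genes, for a log2 ratio of at least 0.8 in size or an unadjusted p under 0.05, for the smallest ratios of a family and for neighbours of called genes. Array values of some others were added after they were seen. At most 3 genes of each other pathway list were named, the tested ones with the largest ratios, and *Ugt35C1* and *cnc* on 1 array each. Alternatives changed the arrays, filters, scaling, probes, moderation or call rule. The number of arrays limits the precision, and no sequence is printed.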

Additional observations from a re-analysis of the deposited data

How the results depend on the processing

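The number of glutathione transferase genes called was 2. It stayed so in 5 alternatives that kept all 4 arrays. Among them were the drop of the fold limit, which could lose no call, and arrays taken as separate values although pairs shared RNA. It was 0 with arrays scaled to 1 median absolute deviation, with 1 probe per gene and with a minimum log2 ratio of 0.5 in the test itself (treat), where 6, 6 and 2 of 15 had an unadjusted p under 0.05 in limma. It was 1 with all probes tested one by one (*GstD3*) and 1 over genes on at least 3 arrays (*GstE9*), where 7 could be tested, and 0 over genes on all 4 arrays, where *GstD1* alone could be. Leaving out 1 array gave 0 to 2: 0 without array 1, 2 or 3, and 2 without array 4. Without array 1 only 8 of the 15 could be tested, and *GstD3* was not among them. Only 2 members, *GstD1* and *GstO3*, could be tested without array 3, so neither called gene could keep or lose its call there. No P450 gene was called under any alternative that could test one, with 0 to 4 genes at an unadjusted p under 0.05.

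The median of glutathione transferase genes was -0.236 and that of P450 genes -0.083 over genes on at least 3 arrays. Leaving out 1 array gave -0.389 to 0.007 and 0.094 to 0.155, each over the genes that could still be tested. The value of -0.389, without array 3, is over 2 genes, and that of 0.007, without array 1, over 8. No P450 gene could be tested without array 3. Over all genes 49 were called among those on all 4 arrays, 22 with treat, 168 with no fold limit, and 0 to 123 without 1 array; the 0 came without array 3, where 67 of 358 had an unadjusted p under 0.05, and without array 2 there were 55. Signs turned for *GstD1* (0.0369) and *GstT3* (0.0266) with scaled arrays, and *GstD1* lay between -0.136 and 0.044 without 1 array. Of 292 values of single members under alternatives 279 kept sign and call, 10 lost the call and 3 turned sign. Only *GstE9* and *GstD3*, with 13 and 11 of these values, had a call to lose. Most of the 279 belong to genes that stayed uncalled, and some alternatives leave the ratio unchanged by design. No paired analysis was possible because there is 1 group of mutant samples, each against the same pool.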
